A study of Rattus norvegicus with 10 samples.

Results

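The NMDA receptor subunit genes Grin1, Grin2a, Grin2b, Grin2c, Grin2d and Grin3a were followed in cultured rat hippocampal neurons after a chemical long-term potentiation (cLTP) stimulus, which is used to potentiate synapses throughout a dish. The members were taken by gene symbol, and all 6 were among the 11615 genes of the deposited expression table. Hippocampal cultures from Wistar rats were kept for 15 days in vitro, and glial growth was held back from the fourth day with fluorodeoxyuridine and uridine. The mock group received the mock-cLTP solution, and the other 4 groups received the cLTP solution and were collected 5, 10, 60 or 120 min later. Each of the 5 groups had 2 libraries, which the labels call biological repeats. The sources used here do not give the composition of the solutions or the time at which mock cultures were collected. All groups shared the glial suppression, the rRNA depletion and the 3 rounds of oligo(dT) selection, and all 4 comparisons with mock shared the same 2 mock libraries.

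NMDA receptors are glutamate-gated cation channels that pass calcium when glutamate is bound and the membrane is depolarised at the same moment, and they trigger long-term potentiation at many hippocampal synapses. Each receptor is a tetramer built around the glycine-binding GluN1 subunits, encoded by Grin1, joined by glutamate-binding GluN2 subunits or by glycine-binding GluN3 subunits. In the forebrain GluN2B dominates early in life and GluN2A gains later, a switch that shortens the channel's currents.

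At 120 min all 6 genes stood below mock, by 14.6% to 22.6% of the mock mean, and 3 of them (Grin1, Grin2b and Grin2c) fell by the test, while 16.9% of all genes were called lower. Without mock replicate 2, or without either 120 min library, only Grin1 passed. At 5, 10 and 60 min no member passed. From 60 to 120 min Grin1, Grin2a and Grin2c fell, while 16% of all genes were called lower. The Grin2a call in that comparison depended on single libraries. The summed neuronal markers were lower at 120 min too, with a change of -12.6%. Per unit of those markers, a ratio chosen after the values were seen and not tested, the members changed by less. That follows from the division, because all 6 members fell by more than the marker sum. Values are CPM (reads of a gene relative to all reads of its library, corrected by trimmed-mean factors) in replicate 1 and then replicate 2, with the SD of 2 libraries. Tests are two-sided limma tests on log2(CPM + 1), adjusted over all 11615 genes and called at an adjusted p under 0.05. A fold change on this scale understates the change of low genes.

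Between 32961534 and 54040657 reads stood behind each library. The stimulus registered in activity-regulated genes. Fos, a subunit of the AP-1 transcription factor, was at 96.2 ± 16 CPM in mock, 640 ± 27 CPM at 60 min and 127 ± 3.1 CPM at 120 min. Arc, an activity-induced synaptic protein, was at 29.02 ± 2.0 CPM in mock and 77.3 ± 4.0 CPM at 60 min. The 5 min pair was the most variable, with a median absolute log2 difference between replicates of 0.084 over all genes against 0.054 to 0.070 in the other pairs. Neuronal markers were present in mock, led by the dendritic protein gene Map2 (880 ± 57 CPM) and the neurofilament gene Nefl (756 ± 23 CPM). Astrocyte markers were also abundant, led by Gfap at 10520 ± 67 CPM and the water channel gene Aqp4 at 2954 ± 29 CPM, so the libraries held RNA of several cell types.

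Grin1 encodes the obligatory subunit, without which no NMDA receptor reaches the surface. In the rn6 build its row spans chr3:2507745-2534663 on the minus strand. Its promoter is shown because Grin1 is the member with the firmest change, and that of Grin2c because it fell in the same comparisons. Of the 6 members, 4 (Grin1, Grin2c, Grin2d and Grin3a) matched the RefSeq promoter table of the GRCr8 build. Both sequences are the 250 bases before the start, on the minus strand, at chr3:28528755-28529004 for Grin1 and chr10:101005139-101005388 for Grin2c. Capitals in the Grin1 promoter mark the short CRE (TGACG, or CGTCA on the other strand), at positions -172 to -168 and -10 to -6 from the start. A stretch of 30 bases at chr3:28528710-28528739, positions 16 to 45 after the Grin1 start, is shown with its match to the EGR motif in capitals.
Grin1 promoter: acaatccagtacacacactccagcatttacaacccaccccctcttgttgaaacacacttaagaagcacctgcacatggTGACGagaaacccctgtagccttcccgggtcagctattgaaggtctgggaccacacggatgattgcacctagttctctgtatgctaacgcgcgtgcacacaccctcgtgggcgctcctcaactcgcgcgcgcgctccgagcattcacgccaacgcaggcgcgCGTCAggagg
Grin1 around the EGR match: gcgtcaggaaGCGGGGGCGgtgggaggggt
Grin2c promoter: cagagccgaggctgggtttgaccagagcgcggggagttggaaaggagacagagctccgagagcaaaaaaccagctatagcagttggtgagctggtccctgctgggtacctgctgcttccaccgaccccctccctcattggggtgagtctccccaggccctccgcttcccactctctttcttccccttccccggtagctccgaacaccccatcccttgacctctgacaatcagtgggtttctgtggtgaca

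Windows from 250 bases before to 50 bases after the start were searched on both strands for 5 motifs. The EGR motif GCGNGGGCG lies in the Grin1 window at positions 26 to 34 and occurs in 4.98% of all 33469 windows. The GC box GGGCGG, which overlaps it at positions 30 to 35, occurs in 33.1%. The short CRE TGACG, found 3 times in the Grin1 window with the third at positions 17 to 21, occurs in 21.2%. The full CRE TGACGTCA (1.83% of windows) and the AP-1 motif TGANTCA (7.33%) had no match in it. The Grin2c, Grin2d and Grin3a windows held none of the 5 motifs. A match is a run of letters and says nothing of binding in these cultures. GC content was 57.6% in the 250 bases before the Grin1 start and 59.6% before that of Grin2c, against a median of 51.2% over all entries.

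Grin1 was at 294.2 and 300.3 CPM in mock and at 270.7 and 284.7 CPM at 5 min. It was at 298.6 and 278.5 CPM at 10 min and at 308.2 and 291.1 CPM at 60 min. At 120 min it was at 256.1 and 250.01 CPM, the lowest values of the 10 libraries, so both 120 min cultures lay below every other culture. Grin1 fell by 0.23 on the log2 scale from mock to 120 min (SE 0.05, 95% interval -0.34 to -0.13, adjusted p = 0.0027). It also fell by 0.24 from 60 to 120 min (SE 0.05, adjusted p = 0.0021). Both calls rested on 9062 to 16435 reads per library. The call against mock kept an adjusted p between 0.00039 and 0.030 in every alternative fit tried. At 60 min the Grin1 mean of 299.6 ± 12 CPM was close to the mock mean of 297 ± 4.3 CPM, with a log2 difference of 0.01 that changed sign to -0.03 when library totals were used for scaling.

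**Figure D1:**
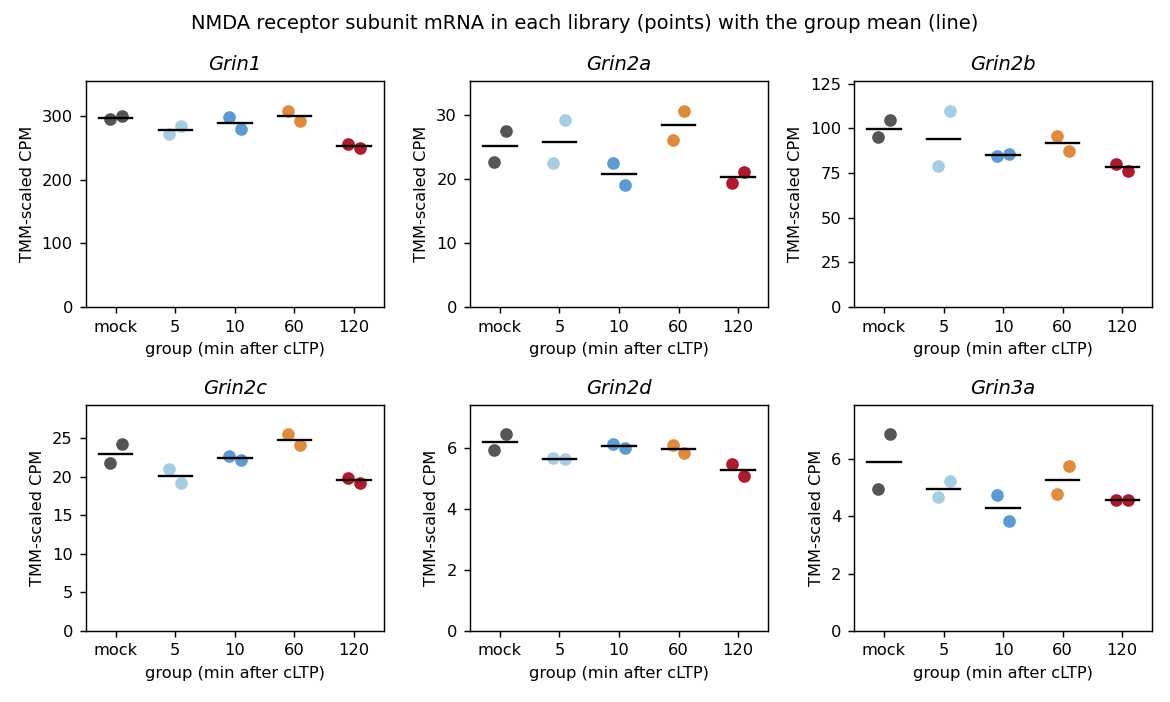
TMM-scaled CPM of each NMDA receptor gene (vertical axis, a panel for each gene, axes from 0) in the mock, 5, 10, 60 and 120 min groups (horizontal axis); points are libraries and lines are means of 2. In all 6 panels both 120 min points lie below both mock points, with Grin1 at 250.01 and 256.1 CPM.

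Grin2b encodes GluN2B, the subunit of slow-decaying receptors and an anchor for CaMKII. Its row spans chr4:169559949-169998448 on the minus strand of rn6, and the table also holds an overlapping Fam60a row whose stated span is far longer than a single gene. Grin2b was at 95.2 and 104.7 CPM in mock and at 78.7 and 110.04 CPM at 5 min. The 5 min replicates were thus near the bottom and at the top of the 10 libraries, and their log2 difference of 0.48 was far beyond its counting error of 0.04. It was at 84.9 and 86.0 CPM at 10 min and at 95.7 and 87.6 CPM at 60 min. At 120 min it was at 80.0 and 76.4 CPM, below both mock cultures but overlapping the 5 min pair. Grin2b fell by 0.35 on the log2 scale from mock to 120 min (SE 0.11, 95% interval -0.60 to -0.10, adjusted p = 0.031). This was the largest estimate of the 6 on that scale, although in percent of the mock mean Grin3a changed more (-22.6% against -21.8%). The Grin2b change depended on single libraries and on the variance prior. Its adjusted p was 0.17 without mock replicate 2, 0.080 without 120 min replicate 1 and 0.15 without 120 min replicate 2. With no intensity trend in the prior it was 0.070. Between 60 and 120 min Grin2b differed by -0.23 (adjusted p = 0.15). Without the 5 min libraries the adjusted p of that difference was 0.0064.

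Grin2a encodes GluN2A, whose receptors close faster than those with GluN2B. Its row spans chr10:5707806-6119897 on the plus strand of rn6. Grin2a was at 22.7 and 27.6 CPM in mock and at 22.5 and 29.2 CPM at 5 min. It was at 22.5 and 19.1 CPM at 10 min, at 26.04 and 30.7 CPM at 60 min, and at 19.4 and 21.2 CPM at 120 min. The 60 min pair overlapped mock, and the 120 min pair lay below both. Grin2a fell by 0.46 on the log2 scale from 60 to 120 min (SE 0.13, adjusted p = 0.016), the largest difference of any member in that comparison. The call was lost without 60 min replicate 2 (adjusted p = 0.13) and without 120 min replicate 1 (adjusted p = 0.10). From mock to 120 min the log2 difference was -0.29 (SE 0.13, 95% interval -0.57 to -0.01, adjusted p = 0.098). That difference passed when library totals were used for scaling (adjusted p = 0.045), with upper-quartile factors (adjusted p = 0.044) and without the 5 min libraries (adjusted p = 0.039). Over its alternatives the adjusted p ran from 0.026 to 0.48. From 10 to 60 min its log2 difference was 0.43 (adjusted p = 0.083), and it passed without the 5 min libraries (0.023).

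Grin2c encodes GluN2C, best known from cerebellar granule cells. Its row spans chr10:103798411-103816016 on the minus strand of rn6. It was at 21.7 and 24.2 CPM in mock and at 21.0 and 19.1 CPM at 5 min. It was at 22.7 and 22.2 CPM at 10 min, at 25.5 and 24.1 CPM at 60 min, and at 19.8 and 19.2 CPM at 120 min. In no pair did its replicates differ by more than 3 counting errors, whereas Grin2a did so in 4 of 5 pairs. Grin2c fell by 0.22 on the log2 scale from mock to 120 min (SE 0.07, 95% interval -0.38 to -0.07, adjusted p = 0.027). It fell by 0.33 from 60 to 120 min (SE 0.07, adjusted p = 0.0037). The call against mock was lost without mock replicate 2 (adjusted p = 0.22), without 120 min replicate 1 (0.075) and without 120 min replicate 2 (0.14).

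Grin2d encodes GluN2D, whose receptors deactivate very slowly and which hippocampal interneurons express. Its row spans chr1:101820461-101856881 on the minus strand of rn6. It was at 5.91 and 6.44 CPM in mock and at 5.65 and 5.63 CPM at 5 min. It was at 6.12 and 5.97 CPM at 10 min, at 6.08 and 5.81 CPM at 60 min, and at 5.46 and 5.08 CPM at 120 min. The 120 min cultures were the lowest of the 10, though by little. With 189 to 337 reads per library, the difference at 120 min was -0.19 (SE 0.08, 95% interval -0.38 to -0.01, adjusted p = 0.087). It passed with library totals (adjusted p = 0.032), with upper-quartile factors (0.033) and with no intensity trend (0.024).

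Grin3a encodes GluN3A, a glycine-binding subunit that lowers calcium permeability and holds back spine maturation in young neurons. Its row spans chr5:64928620-65073012 on the minus strand of rn6. The rows of Impad1, Rpl35a, Rps14 and Rps20 overlap it only because their stated spans cover far more than a gene. It was at 4.94 and 6.87 CPM in mock and at 4.69 and 5.24 CPM at 5 min. It was at 4.74 and 3.85 CPM at 10 min, at 4.77 and 5.76 CPM at 60 min, and at 4.58 and 4.56 CPM at 120 min. The mock pair was wide apart, and the lowest library was a 10 min one. The difference at 120 min was -0.29 (SE 0.14, 95% interval -0.60 to 0.01, adjusted p = 0.12). Without mock replicate 1 its adjusted p was 0.023. With 147 to 261 reads per library Grin3a had the fewest reads of the 6.

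Set beside all genes, the members lay on the lower side at 120 min. Of the 6, 3 were called lower and 0 higher, while 16.9% of all genes were called lower and 20.4% higher. Both 120 min libraries lay below both mock libraries for 6 of 6 members, against 37.5% of all genes. The members' median log2 difference was -0.26, against -0.01 over all genes, and 5 of 6 had an unadjusted p under 0.05. The count of 3 was 1 (Grin1) without mock replicate 2, without 120 min replicate 1 or without 120 min replicate 2. Scaling by library totals or by upper-quartile factors shifted all genes nearly alike, by -0.06 on the log2 scale. The calls of members and of all genes moved with it, and the members' estimates stayed negative. With library totals, 5 members and 26.9% of genes were called lower, and the share of higher among all calls was 36.4% against 54.7% in the fit reported here. With upper-quartile factors, 5 members and 26.7% of genes were called lower, with 36.8% of all calls higher. From 60 to 120 min, 3 of 6 members were called lower against 16% of genes, and both libraries were lower for all 6 against 35.3% of genes. In that comparison 55.2% of all calls were higher, against 46.7% with library totals and 44.6% with upper-quartile factors.

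**Figure D2:**
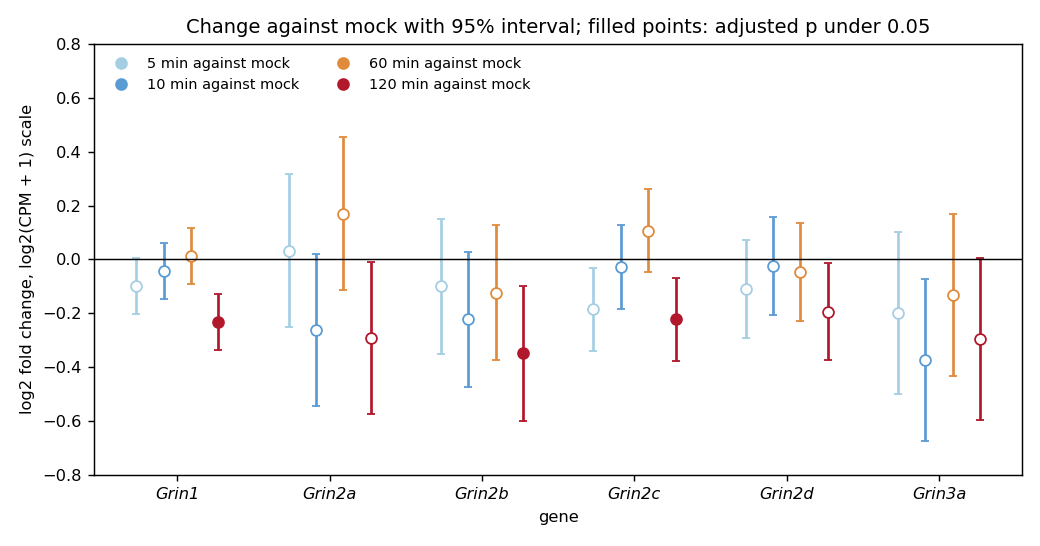
Log2 fold changes against mock (vertical axis, log2(CPM + 1) scale) of the 6 genes (horizontal axis) at 5, 10, 60 and 120 min, with 95% intervals from limma; filled points passed. At 120 min the estimates run from -0.35 for Grin2b to -0.19 for Grin2d, and at 60 min from -0.13 to 0.17.

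Earlier times showed no called member. At 60 min 0 of 6 passed, with log2 differences from -0.13 for Grin3a to 0.17 for Grin2a, adjusted p from 0.52 to 0.96 and no unadjusted p under 0.05. Among all genes 1.95% were called lower and 4.64% higher at that time. At 10 min all 6 estimates were below 0, from -0.37 for Grin3a to -0.02 for Grin2d, and 0 passed (adjusted p from 0.42 to 0.96). Grin3a had an unadjusted p of 0.0195, and 0.0344% of genes were called higher and 0% lower. Both 10 min libraries lay below both mock libraries for 3 of 6 members, against 21.4% of genes. At 5 min 0 of 6 members and 0% of genes passed with limma, while 1862 genes had an unadjusted p under 0.05. Without 5 min replicate 1 5.01% of all genes were called lower and 0.956% higher, and 0 members passed. The members' estimates ran from -0.20 to 0.03, with adjusted p from 0.25 to 0.91. Grin2c, at an unadjusted p of 0.0229, was the only member under 0.05. Both libraries were below both mock libraries for 3 members, against 23.3% of genes.

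Between the early times 0 of 6 members passed in either direction. From 5 to 10 min 0.00861% of all genes were called higher and 0% lower. From 10 to 60 min 3.7% were called higher and 1.93% lower, and both 60 min libraries lay above both 10 min libraries for 4 of 6 members, against 23.8% of genes.

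Tested for a change at any of the 4 times, Grin1 (adjusted p = 0.0083), Grin2c (0.013) and Grin2a (0.043) passed, against 41.3% of all genes. Grin2b (0.14), Grin3a (0.20) and Grin2d (0.27) did not pass. Without 120 min replicate 2 the count of members was 0 in place of 3, and without 120 min replicate 1 it was 1.

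The authors' deposited table was made from the same libraries. Its log2 fold changes are near these for Grin1, Grin2a, Grin2b and Grin2c and further from 0 for Grin2d and Grin3a. Its adjusted p and its calls differ from those of the limma fit. At 120 min the authors' deposited table lists Grin2b at a log2 fold change of -0.35 with an adjusted p of 4.3e-08 and Grin1 at -0.23 with 5.7e-05. The authors' deposited table lists Grin2a at -0.31 (adjusted p 0.0050), Grin2c at -0.23 (0.013), Grin3a at -0.37 (0.073) and Grin2d at -0.23 (0.17). Thus 4 members were under 0.05 in the authors' deposited table at that time, where 18.8% of genes were lower by its adjusted p. The limma fit called 3, without Grin2a (adjusted p = 0.098). At 10 min the authors' deposited table has Grin2b under 0.05 (-0.23, adjusted p 0.034), where 0.56% of genes were lower. In the limma fit Grin2b had an adjusted p of 0.564 at 10 min. No other member was under 0.05 at 5, 10 or 60 min there.

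Summed marker levels of several cell types also differed from mock at 120 min, and some of these sums had moved earlier. Counts of markers called stand beside 16.9% lower and 20.4% higher over all genes at that time. The summed level of the 8 neuronal markers, all in the table and none at 0, ran from 3653 to 3847 CPM in mock and from 3198 to 3356 CPM at 120 min, with 4 markers called lower and 0 higher. The 7 excitatory markers, led by the vesicular glutamate transporter gene Slc17a7 (887 ± 30 CPM in mock) and Camk2a (264 ± 11 CPM), went from 1311 to 1385 CPM in mock to 1099 to 1126 CPM, with 3 called lower. The 9 interneuron markers found, led by the GABA-synthesis genes Gad1 (482 ± 0.83 CPM) and Gad2 (237 ± 2.5 CPM), went from 1020 to 1052 CPM in mock to 888.8 to 917.2 CPM, with 4 called lower. All 3 sums were thus lower in both 120 min cultures than in both mock cultures, though fewer than 5 markers of each list were called. The 9 astrocyte markers ran from 21997 to 22145 CPM in mock and from 23375 to 24535 CPM at 120 min, with 3 called higher and 0 lower. The 9 microglial markers, led by the complement genes C1qc (61.9 ± 0.38 CPM) and C1qa (58.2 ± 1.2 CPM), ran from 260.9 to 261.2 CPM and from 187.9 to 195.2 CPM, with 8 called lower. The microglial sum was already below mock at 5 min (234.2 to 241.1 CPM), 10 min (201.8 to 225.3 CPM) and 60 min (224.0 to 234.3 CPM). The sum of the 8 oligodendrocyte-lineage markers found, among them Mbp (491 ± 22 CPM), changed by -10.1% from the mock mean, with 2 called lower. The sum of 5 vascular and fibroblast markers, led by Col3a1 (1180 ± 44 CPM) and Col1a1 (1115 ± 63 CPM), changed by -14.7%, with 2 called lower. From 2283 to 2443 CPM in mock, it was already lower at 10 min (2075 to 2159 CPM) and 60 min (1871 to 1957 CPM). In such bulk samples fewer cells of a type and less RNA per cell cannot be told apart, and the part of these shifts in the receptor result was not tested.

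**Figure D3:**
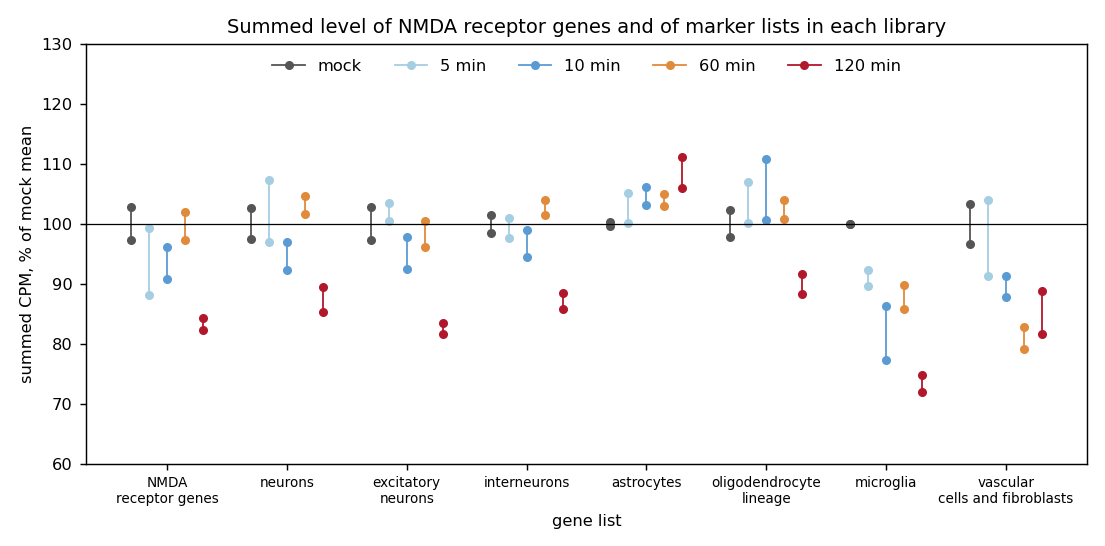
Summed CPM of the NMDA receptor genes and of each marker list (horizontal axis) in every library, as a percent of the mock mean (vertical axis, which does not start at 0); points are libraries and a line joins the 2 of a group. At 120 min the means differ from mock by -12.6% for neuronal, -26.6% for microglial and 8.54% for astrocyte markers.

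Per 1000 CPM of the 8 neuronal markers, a ratio chosen after the values were seen, the members' differences at 120 min shrank. All 6 members had fallen by more than the marker sum, so smaller differences follow from the division. Grin1 was at 79.3 ± 1.8 in mock and 77.3 ± 3.9 at 120 min, and Grin2c at 6.12 ± 0.24 and 5.96 ± 0.33. Grin2a was at 6.69 ± 0.67 and 6.18 ± 0.17, Grin2d at 1.65 ± 0.040 and 1.61 ± 0.14, and Grin3a at 1.57 ± 0.31 and 1.40 ± 0.052. The mock and 120 min libraries of these 5 genes overlapped on that ratio. Grin2b alone among the 6 did not overlap, at 26.6 ± 0.80 in mock and 23.9 ± 1.6 at 120 min, a difference of -10.3%. The difference of Grin3a, which overlapped, was larger at -11.0%. How many of all genes would not overlap on this ratio was not counted. This ratio was not tested.

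The balance among GluN2 subunits sets receptor kinetics, so the levels of their genes were compared as CPM per kilobase of the table's length column. The libraries held RNA of several cell types. Shares and ratios of these genes therefore describe the whole culture, and not the make-up of receptors in any one cell type. Grin1 was left out because its stated length of 32624 bases exceeds its genomic span of 26919 bases. In mock Grin2b stood highest at 19.0 ± 1.3 CPM per kilobase. Grin2a, at 5.33 ± 0.73, and Grin2c, at 5.23 ± 0.40, did not differ beyond their spread, and Grin2d was lowest at 1.18 ± 0.072. Grin2b thus made up 61.9% ± 0.83 of the summed GluN2 level in mock, Grin2a 17.3% ± 0.97, Grin2c 17.0% ± 0.065 and Grin2d 3.83% ± 0.074. At 120 min the shares were 60.4% ± 1.1 for Grin2b, 17.5% ± 1.3 for Grin2a, 18.1% ± 0.11 for Grin2c and 4.07% ± 0.15 for Grin2d. The order held in each group mean except that Grin2c stood above Grin2a at 10 and 120 min, within the spread of Grin2a at 120 min. The Grin2b share in the 5 min pair was 58.5% and 64.3%, and its lowest library was 60 min replicate 2 at 56.0%.

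**Figure D4:**
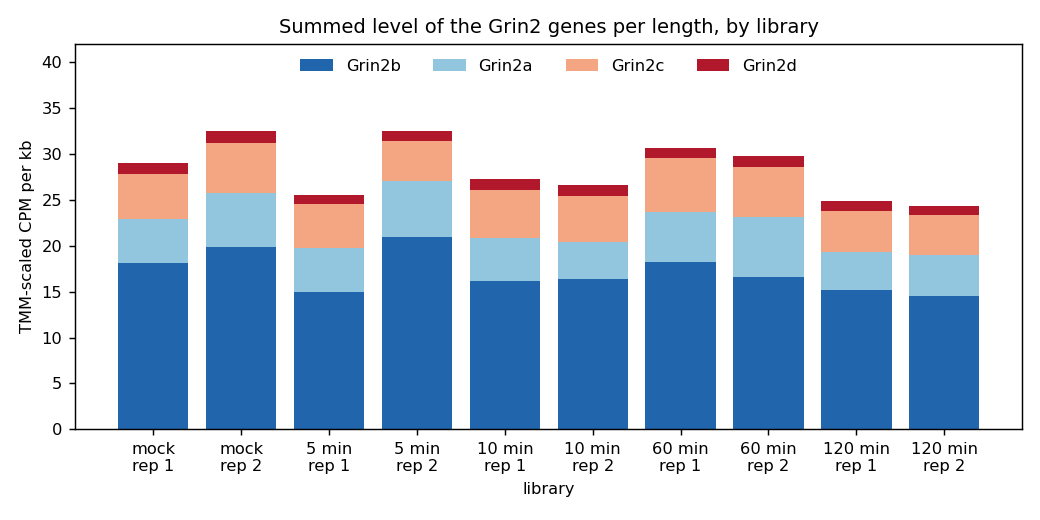
Stacked bars of the levels of the 4 GluN2 genes as TMM-scaled CPM per kilobase (vertical axis, from 0) in each of the 10 libraries (horizontal axis). Grin2b is the tallest segment in every library, at 14.5 to 20.9, and Grin2d the shortest at 0.967 to 1.23.

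The ratio of Grin2b to Grin2a per kilobase, which falls during the developmental switch, was 3.76 and 3.41 in mock. It was 3.14 and 3.38 at 5 min and 3.39 and 4.04 at 10 min. It was 3.30 and 2.56 at 60 min, the latter the lowest of the 10 libraries, and 3.70 and 3.24 at 120 min. The 10 and 120 min pairs overlapped mock, and the 5 and 60 min pairs lay below it. No test of this ratio was made. The log2 ratio of the summed GluN2 CPM to Grin1 CPM depends on gene length and is compared only between groups. It was -0.95 ± 0.094 in mock and -0.94 ± 0.20 at 5 min. It was -1.10 ± 0.049 at 10 min, -0.99 ± 0.023 at 60 min and -1.04 ± 0.0017 at 120 min.

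Genes of the receptor's surroundings were taken from lists chosen with earlier results of these data known. Of 30 scaffold and signalling partner genes, 19 were called lower and 2 higher at 120 min, with a median log2 difference of -0.18. Over all genes 16.9% were called lower and 20.4% higher, and the median was -0.01. Shank1, a postsynaptic scaffold, fell from 102 ± 1.3 to 72.2 ± 1.4 CPM (log2 difference -0.49, adjusted p = 7.3e-05). Neto1, an auxiliary protein of NMDA and kainate receptors, fell from 75.4 ± 2.3 to 61.0 ± 0.21 CPM (adjusted p = 0.00037). Actn1, an actin crosslinker of a family that binds GluN1, rose from 104 ± 1.4 to 177 ± 21 CPM (log2 difference 0.76, adjusted p = 3.2e-06). The other rise, named after its values were seen, was that of Dlg1, the scaffold SAP97, from 55.4 ± 0.11 to 68.6 ± 3.6 CPM (adjusted p = 0.0031). At 60 min 0 of the 30 passed; Shank3 (adjusted p = 0.10) and Cdk5r1 (0.20) came closest.

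Among the other ionotropic glutamate receptor subunits, 9 of 11 were called lower and 0 higher at 120 min, with a median of -0.25, against 16.9% lower and 20.4% higher over all genes. The AMPA receptor gene Gria4 fell from 104.9 ± 1.5 to 83.8 ± 0.40 CPM (adjusted p = 0.00038), and Gria2, which makes AMPA receptors impermeable to calcium, from 989 ± 17 to 854 ± 9.0 CPM (0.0022). The kainate receptor genes Grik4 (56.1 ± 0.90 to 47.7 ± 0.81 CPM, adjusted p = 0.0039) and Grik2 (54.7 ± 0.81 to 45.9 ± 2.2 CPM, 0.0041) fell as well. At 60 min 0 of 11 passed, with Grik1 at an adjusted p of 0.60 and Gria4 at 0.72. These 9 genes were thus lower at the time when 3 NMDA receptor genes were.

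Of 17 transport and turnover genes, 3 were called lower and 2 higher at 120 min, with a median of -0.07, against 16.9% lower and 20.4% higher over all genes. The share called lower was close to that background. Apba1, an adaptor that carries GluN2B vesicles, fell from 146 ± 3.3 to 119 ± 0.81 CPM (adjusted p = 0.00028). Pacsin1, an endocytic adaptor that binds GluN3A, fell from 76.4 ± 1.9 to 65.5 ± 1.2 CPM (0.0084), and the motor gene Myo5a from 256 ± 25 to 213 ± 7.1 CPM (0.031). The recycling GTPase gene Rab11a rose from 222 ± 11 to 245 ± 1.9 CPM (0.029). Fbxo2, a ubiquitin ligase adaptor for glycosylated proteins named after its values were seen, rose from 288 ± 16 to 327 ± 25 CPM (0.049). At 60 min 0 of 17 passed, with Apba1 at an adjusted p of 0.26 and Lin7b at 0.28.

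Of 17 genes of co-agonist and glutamate supply, 5 were called higher and 1 lower at 120 min, with a median of -0.00, against 20.4% higher and 16.9% lower over all genes. Slc1a4, a neutral amino acid transporter that carries serine, rose at 60 min from 59.2 ± 2.7 to 74.9 ± 2.1 CPM (adjusted p = 0.00094) and at 120 min to 83.4 ± 1.2 CPM (1.3e-05). Its relative Slc1a5 rose from 17.5 ± 0.85 to 23.9 ± 0.72 CPM at 120 min (0.00035). The neuronal glutamate transporter gene Slc1a1 rose from 84.1 ± 3.6 to 113 ± 2.3 CPM (0.00042), and Shmt2, a mitochondrial enzyme between serine and glycine, from 55.3 ± 1.0 to 68.1 ± 0.25 CPM (0.00059). Slc1a3, an astrocyte glutamate transporter, rose from 2266 ± 61 to 2488 ± 9.6 CPM (0.037), and Slc17a7 fell from 887 ± 30 to 739 ± 11 CPM (0.0021); both were named after their values were seen. Slc1a3 is on the astrocyte marker list and Slc17a7 on the excitatory list.

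Among transcriptional regulators of NMDA receptor genes, 5 of 13 were called higher and 0 lower at 120 min, against 20.4% and 16.9% of all genes. At 60 min 0 passed, with Sp1 at an adjusted p of 0.095 and Rcor1 at 0.67. Rest, a repressor of neuronal genes that is known to act on Grin1 and on Grin2b, rose from 22.8 ± 0.35 to 40.0 ± 0.28 CPM at 120 min (log2 difference 0.78, adjusted p = 1.3e-06). Its cofactor gene Rcor1 rose from 37.5 ± 0.45 to 46.2 ± 0.27 CPM (0.0050). The histone deacetylase gene Hdac1 rose from 71.5 ± 0.58 to 80.9 ± 2.2 CPM (0.021), and the histone methyltransferase gene Ezh2 from 11.4 ± 0.46 to 14.3 ± 1.0 CPM (0.021). Hdac2, named after its values were seen, rose from 106 ± 1.5 to 115 ± 3.2 CPM (0.046). No test of a link between these levels and those of the receptor genes was made.

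The immediate-early transcription factors had a different time course, with 16 of 16 higher at 60 min (median 2.48) and at 120 min (median 1.13). Over all genes 4.64% were called higher at 60 min and 20.4% at 120 min. At 10 min 3 of the 16 were higher, against 0.0344% of all genes. At 60 min Atf3 rose from 16.9 ± 0.58 to 433 ± 4.9 CPM (adjusted p = 1.2e-13) and Fosb from 4.43 ± 0.19 to 88.1 ± 7.5 CPM (9.8e-12). Junb rose from 73.2 ± 1.9 to 335 ± 15 CPM (1.9e-10). Egr1, a factor that binds the EGR motif, rose from 31.98 ± 2.5 to 190.5 ± 14 CPM (2.4e-10) and was at 64.0 ± 0.20 CPM at 120 min. At 120 min Fosl1 was higher at 128 ± 0.15 against 6.37 ± 0.97 CPM in mock (5.4e-11), and Egr2 at 25.3 ± 1.1 against 3.37 ± 0.66 CPM (2.0e-09). These genes were thus high when no NMDA receptor gene had passed, at 60 min.

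**Figure D5:**
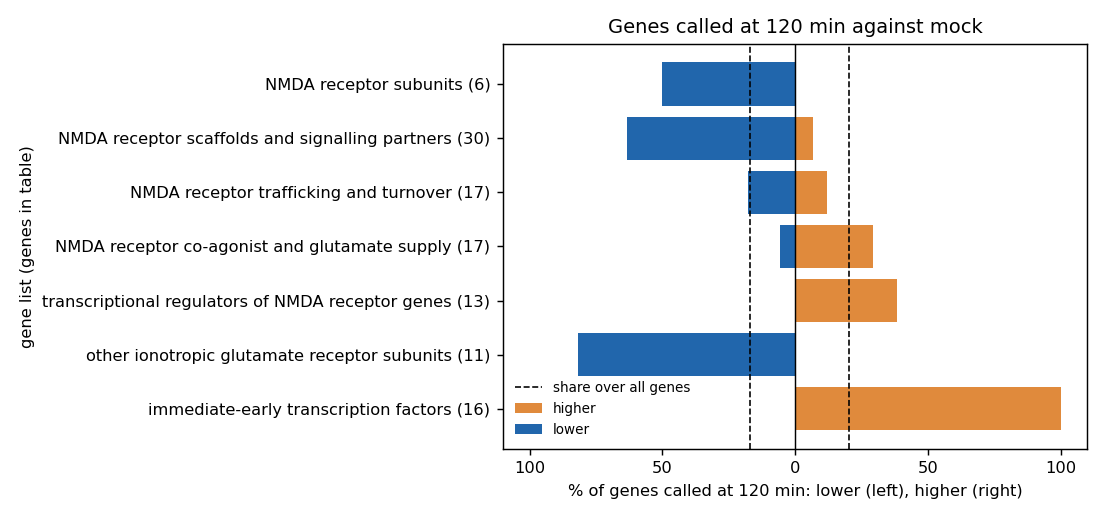
Percent of the genes in each list (vertical axis, with the number in the table) called lower (left) or higher (right) at 120 min against mock (horizontal axis); dashed lines mark the shares over all genes, 16.9% lower and 20.4% higher. Lower calls were 19 of 30 for scaffold and signalling genes and 9 of 11 for other receptor subunits, and higher calls 16 of 16 for immediate-early factors.

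The profiles most like each member over the 10 libraries were found by Pearson's r on log2(CPM + 1) among 11570 genes, as a description of libraries that share groups and depth. Those of Grin1 were Prr5, Dctn1 and Cux2 (r from 0.96 to 0.97), and those of Grin2a were Galnt14, Slc9a7 and Pcdh9 (each 0.97). Grin2b was followed by Gabrb1 at 0.95, Fry at 0.93 and Rnf167 at 0.92, and Grin2c by Cyp4x1 at 0.95, Asb2 at 0.94 and Begain at 0.92. Grin2d was followed by Abcc10, Dfna5 and Psd2 (each 0.93), and Grin3a by Lnpep at 0.94, Robo1 at 0.90 and Slc1a2 at 0.89. Among the members themselves r ran from 0.27 for Grin2b with Grin2c to 0.88 for Grin1 with Grin2d. Grin2c was also close to Grin1 (0.80) and to Grin2d (0.80), and Grin3a was closest to Grin2a (0.78). Grin1, Grin2c and Grin2d thus varied together more closely than Grin2b and Grin2c, the pair with the lowest r. Grin2b was closer to Grin1 (0.68) and to Grin2a (0.67).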

How the data were processed

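RNA of 10 cultures was sequenced in 5 groups of 2. The submitters' processing notes name bcl2fastq, TopHat2 2.1.0, HTSeq and edgeR, and rn6 as the build. The annotation and the strandedness of the counting are not stated in these sources, so reads of overlapping genes cannot be told apart by strand. The authors deposited CPM per library for 11615 genes. They also deposited a log2 fold change with its p-value, raw and adjusted, for each time against mock. The lowest values deposited are worth 9 to 20 reads, and rarer transcripts are not covered. Of the per-library columns, 6 were copies of mock and were not used, and 22 rows with a serial number in place of a symbol were tested but not named. Because the table holds CPM, the count models listed as alternatives were not run.

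CPM was divided by trimmed-mean (TMM) factors, with trims of 30% on log ratios and 5% on mean levels, and a pseudocount of 1 was added before taking log2. limma 3.58.1 in R 4.3.3 fitted all 10 libraries with 1 mean per group, an intensity trend and 5 residual degrees of freedom. Adjustment was by Benjamini-Hochberg over all genes at 0.05. The fit was tested on simulated data. The p-values measure the spread between cultures that the labels call biological repeats. Every value lay within 0.01 reads of a whole number of reads, which gave the depths, but no value of a few reads was there to check the step; counting error covers sampling only.

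Every member was named at every time. The other names were the 3 genes most correlated with each member, up to 4 called genes by p from each pathway list at 60 and 120 min (up to 2 where none was called), the 2 highest markers of each cell type, and Fos, Arc and Egr1. Members and lists were chosen with earlier results of these data known. Listed genes without a row in the table were not analysed here. Some genes chosen this way are not reported here. Alternatives covered scaling, limma-voom, the pseudocount, filters, thresholds, the samples fitted, the variance prior, a block for the replicate number and each library left out. Replicate numbers were not taken as pairs: of 10 pairs of groups, 3 had a correlation of same-numbered deviations over 0.1. Figures were drawn with matplotlib 3.10.9.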

Additional observations from a re-analysis of the deposited data

Results flagged for a closer look

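Differences between the changes at 120 min and at 60 min, each against mock, were tested directly as 120 against 60 min with limma, and 3 of 6 NMDA receptor genes passed as lower, against 16% of all genes called lower and 19.8% higher. The difference was -0.24 for Grin1, -0.46 for Grin2a and -0.33 for Grin2c on the log2 scale, lower at 120 min in each case. Both 120 min libraries lay below both 60 min libraries for these 3 genes. The Grin2a call was lost without 60 min replicate 2 (adjusted p = 0.13) and without 120 min replicate 1 (adjusted p = 0.10). Groups of 2 libraries are too small for a test of single outlying libraries.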

How the results depend on the processing

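Of 989 values of single members under an alternative, 939 kept their direction and their side of the threshold, 12 lost a call, 23 gained one and 15 changed sign. Counts of members called moved along with the share of all genes called. At 120 min against mock the share of all genes called lower was 16.9% in the fit reported here. It was 26.9% with library totals, 26.7% with upper-quartile factors, 9.38% at a threshold of 0.01 and 21.5% at a threshold of 0.1. The 3 members lower at 120 min against mock became 5 with library totals, 5 with upper-quartile factors, 1 at a threshold of 0.01, 5 at a threshold of 0.1, and 1 to 4 with each library left out in turn. The smallest count, 1, came without mock replicate 2 and without either 120 min library. Members lower from 60 to 120 min ranged from 2 to 4 with a library left out. The 0 higher from 10 to 60 min became 1 (Grin2a) without the 5 min libraries, 1 at a threshold of 0.1 and 1 with only the groups compared, and ranged from 0 to 1 with a library left out. The 0 lower from 5 to 10 min ranged from 0 to 2 (Grin2a and Grin2b, without 5 min replicate 1). Members changed at any time went from 3 to 1 at a threshold of 0.01 and ranged from 0 to 4 with a library left out. Listed pathway genes lower at 60 min went from 0 to 1 with library totals, 1 with upper-quartile factors and 1 at a threshold of 0.1. With a replicate block, 31 listed pathway genes were lower at 120 min and 28 were higher, in lists of the sizes given above. Over all genes 16.8% were lower and 20.2% higher with that block. In the fit reported here, 16 of the higher calls at 120 min were immediate-early factors. With each library left out in turn, those lower at 120 min ranged from 20 (without mock replicate 2) to 34. Those higher ranged from 24 to 30. The counts in the fit reported here are given list by list above. The Grin2b share of the GluN2 sum in mock was 64.8% without division by length. Grin1 at 60 min against mock changed from 0.01 to -0.026 with library totals and -0.0146 with upper-quartile factors. With each library left out, differences that crossed 0 ranged from -0.026 to 0.052 for Grin1 at 60 min, -0.094 to 0.0047 for Grin1 at 10 min, -0.15 to 0.22 for Grin2a at 5 min and -0.34 to 0.14 for Grin2b at 5 min. They ranged from -0.36 to 0.11 for Grin2b from 5 to 10 min, -0.10 to 0.046 for Grin2c at 10 min, -0.078 to 0.029 for Grin2d at 10 min, -0.10 to 0.0073 for Grin2d at 60 min and -0.043 to 0.0064 for Grin2d from 10 to 60 min. For Grin3a they ranged from -0.40 to 0.0038 at 5 min and from -0.33 to 0.071 at 60 min. None of these differences had passed, and the causes were not tested. A replicate block changed no call of a member: 3 were lower at 120 min, 3 were lower from 60 to 120 min and 3 changed at any time; the pairing of numbers had correlations from -0.16 to 0.27. The edgeR and DESeq2 alternatives were not run: the table holds CPM, and since its lowest values are worth 9 to 20 reads, the step taken as 1 read could not be checked on lower values. Read numbers and counting errors given here rest on that step. Grin3a has no value under the filter on a mean of 5 CPM. Depth limits Grin2d and Grin3a most, and 2 libraries per group limit all members.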
